A study of Arabidopsis thaliana with 24 samples.

Results

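Ethanol is used to switch on genes in plants that carry an alcohol-inducible promoter, so its effect on plants without a transgene is the baseline of such experiments. The present comparison is that baseline in light-dark cycles: wild-type Arabidopsis thaliana seedlings of the Col-0 ecotype, 3 arrays of ethanol-treated seedlings against 3 arrays of mock-treated seedlings, chosen by their titles out of 24 arrays. Seedlings of both groups were 13 days old, had grown for 12 days in cycles of 12 h light and 12 h dark (LD) and stayed in LD for 1 more day. The ethanol group was then submerged for 3 h in Murashige-Skoog (MS) medium with 2.5% ethanol, and the mock group was submerged for 3 h in the same medium without ethanol. Both media held MG132, an inhibitor of the proteasome, at a concentration the labels give as 20 mM. Both groups were harvested at ZT1, 1 h after lights-on. Ethanol is therefore compared with mock in submerged, MG132-treated seedlings only.

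Set beside it are the same comparison in wild type transferred to constant light (LL) for the last day, and in LD in ALC::TOC1, whose transgene puts the clock repressor TOC1 under ethanol control. Each has 3 ethanol and 3 mock arrays, all with MG132. Total RNA of seedlings was measured on Affymetrix arrays as log2 levels per probe set. In such tissue, fewer cells of a type and less RNA per cell cannot be told apart. The labels do not say whether the arrays of a group came from separate cultures, and p-values then reflect only how far these samples vary, which may be technical variation.

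Several processes frame the results. In plants ethanol is oxidised to acetaldehyde and acetate, the reverse of the fermentation route by which submerged tissue makes ethanol when oxygen runs short. Small heat shock proteins bind unfolding proteins and hold them for refolding by larger chaperones, and their genes are known for induction by heat and by agents that unfold proteins. Photosynthesis genes of the nucleus and the circadian clock both respond to light at dawn, the time of harvest.

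Of 22746 probe sets tested with limma, 5932 (26.1%) had a Benjamini-Hochberg adjusted p under 0.05 and are termed called. The calls were 2541 rises (11.2%) and 3391 falls (14.9%) in ethanol-treated seedlings. At least 2-fold were 524 rises (2.3%) and 396 falls (1.74%), and at least 4-fold were 118 (0.519%), 66 rises and 52 falls. The 3 ethanol arrays did not overlap the 3 mock arrays for 34.9% of all probe sets. The median log2 difference over all probe sets was -0.002.

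The array medians were 5.27, 5.14 and 5.31 log2 in the ethanol arrays and 5.30, 5.41 and 5.35 log2 in the mock arrays, a difference in means of -0.12. With each array centred on its median, every difference moved up by that amount and the calls became 3870 rises and 2199 falls. The share of rises among calls was then 63.8%, against 42.8% as deposited. A second quantile normalisation gave 2802 rises and 3125 falls, a share of 47.3%. Which direction had more calls thus depends on the scaling, but of the scalings compared only centring gave more rises than falls. The 3' minus 5' differences of control transcripts, which rise as RNA degrades, were highest in ethanol replicate 1. For GAPDH they were 1.57, 0.858 and 0.951 log2 in the ethanol arrays and 1.03, 1.13 and 1.09 log2 in the mock arrays. The ubiquitin difference was 1.39 log2 in ethanol replicate 1 and lay between 1.02 and 1.04 log2 in the other 5 arrays. No such difference between the groups passed an exact two-sided permutation test, where 3 arrays against 3 cannot give a p under 0.1 (p = 1 for GAPDH, 0.4 for actin, 0.8 for ubiquitin and 0.2 for the median).

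**Figure D1:**
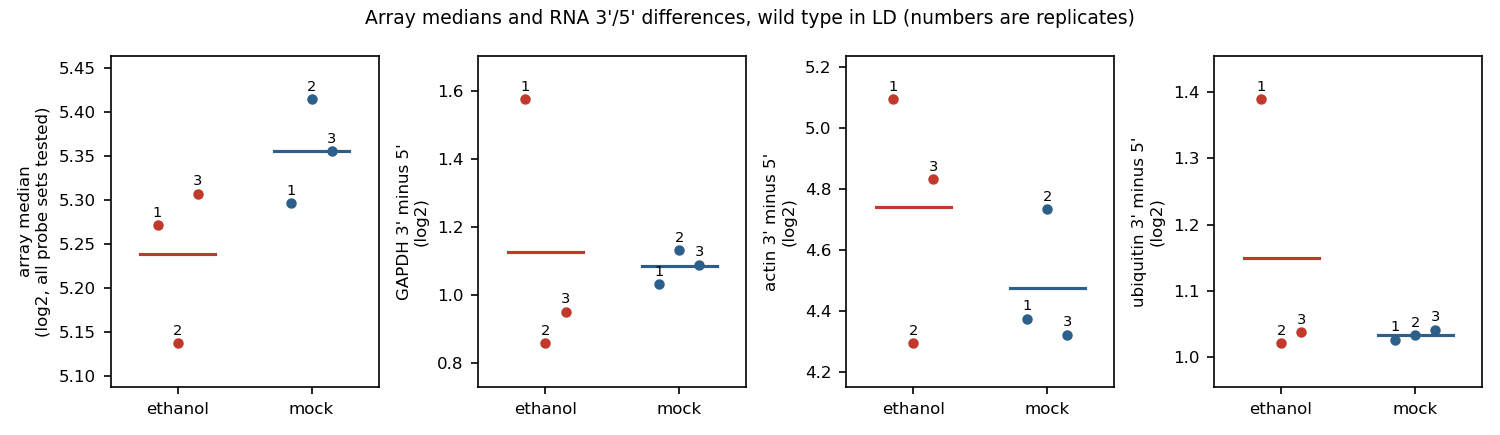
Array medians (log2) and the 3' minus 5' differences of GAPDH, actin and ubiquitin (log2) for the 3 ethanol and the 3 mock arrays of wild type in LD. Points are arrays, numbered by replicate, and lines are group means. Ethanol replicate 1 has the highest value in all 3 of the 3' minus 5' differences, and ethanol replicate 2 the lowest median, 5.14.

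The tissue check gave levels per member of lists of marker genes. The 11 measured photosynthesis genes averaged 4.60 to 12.8 log2 in ethanol arrays and 4.75 to 13.1 log2 in mock arrays, with LHCB4.3 alone under 9 log2, and 9 of them fell, as described further on. Of 3 measured root markers, PYK10, a root glucosidase, stood at 11.1 log2 in ethanol arrays and 11.1 log2 in mock arrays. The other root markers, EXPA7 and EXPA18, and the 4 measured cell division genes lay under 5 log2 in both groups, and none of these was called.

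Among the gene lists, the small heat shock protein genes had the highest median difference. Of 8 measured members of that list, 7 rose and none fell, against 11.2% rising and 14.9% falling among all probe sets, and the list's median log2 difference was 2.55, against -0.002 over all. Members without a gene symbol are given by locus here, and their place in this and the other lists rests on lists assembled by locus. Among 10 measured chaperones and co-chaperones 5 rose and none fell, with a median of 0.34.

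AT1G53540 stood at 9.32, 10.47 and 10.68 log2 in the ethanol arrays and 7.86, 6.79 and 7.10 log2 in the mock arrays. AT1G54050 stood at 9.08, 10.93 and 11.60 log2 in the ethanol arrays and 8.47, 7.45 and 7.74 log2 in the mock arrays. AT2G29500 stood at 8.39, 9.73 and 10.20 log2 in the ethanol arrays and 7.36, 6.43 and 6.71 log2 in the mock arrays. In all 3, ethanol replicate 1 was the lowest of its group, and mock replicate 1 was the highest of its group. The differences were 2.903 ± 0.41 (SE), 2.65 ± 0.44 and 2.61 ± 0.41 log2, which is 7.48-fold, 6.27-fold and 6.1-fold, with limma adjusted p of 2.72e-05, 0.000126 and 7.78e-05.

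AT1G52560 stood at 3.71, 6.76 and 7.78 log2 in the ethanol arrays and 3.13, 3.16 and 3.63 log2 in the mock arrays. AT5G37670 stood at 4.85, 6.98 and 7.94 log2 in the ethanol arrays and 3.98, 3.88 and 4.41 log2 in the mock arrays. For both, ethanol replicate 1 lay just above the mock arrays while the other ethanol arrays were several log2 units higher, and mock levels were at or near the background of the array. Their differences were 2.78 ± 0.57 (SE) and 2.50 ± 0.42 log2 (limma adjusted p = 0.000989 and 0.000165). Without ethanol replicate 1 these were 3.97 and 3.37 log2. ATHSP22.0, a small heat shock protein, stood at 4.04, 6.45 and 7.22 log2 in the ethanol arrays and 4.07, 3.62 and 3.94 log2 in the mock arrays, so ethanol replicate 1 overlapped the mock arrays (difference 2.03, limma adjusted p = 0.00163). AT5G51440 rose by 0.87 log2. AT4G21870, at -0.33 log2, was not called. Ethanol replicate 1, the lowest ethanol array for these genes, was also the array with the highest 3' minus 5' differences. Of the other ethanol arrays, replicate 3 had the higher levels, and their GAPDH differences were close, at 0.858 log2 in replicate 2 and 0.951 log2 in replicate 3. Whether levels follow RNA quality cannot be told from 3 arrays. With the GAPDH difference as a covariate 7 members rose, and the part of the actin and ubiquitin differences was not tested. With only the compared groups fitted, 4 members rose, and with dim probe sets filtered out, 5.

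Among the chaperones, AT5G48570, known as ROF2 or FKBP65, a peptidyl-prolyl isomerase that binds HSP90 during heat stress, stood at 7.99, 9.27 and 10.26 log2 in the ethanol arrays and 6.56, 6.15 and 6.03 log2 in the mock arrays. The difference was 2.93 ± 0.45 (SE) log2, 7.6-fold (limma adjusted p = 6.64e-05). HSA32, a heat-stress protein needed to keep acquired thermotolerance, rose by 1.27 ± 0.24 log2, and AT2G20560 by 1.395 ± 0.26 log2. Of the 3 co-chaperones that link HSP70 to HSP90, Hop3 rose by 1.18 ± 0.23 log2 and Hop2 by 0.45 ± 0.09 log2, while Hop1 differed by 0.00 and was not called. The HSP70 genes Hsp70-2 and AT3G09440, at 0.23 and 0.18 log2, were not called.

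In the endoplasmic reticulum, where a separate unfolded protein response operates, 3 of 7 measured genes rose (42.9%) and 1 fell (14.3%). Among all probe sets 11.2% rose and 14.9% fell. The risers were BZIP60 at 0.79 ± 0.14 (SE) log2 and BZIP28 at 0.59 ± 0.13 log2, both transcription factors that start that response, and DER1 at 0.76 ± 0.15 log2, a derlin of the pathway that removes misfolded proteins. ATERDJ3B, a luminal co-chaperone, fell by 0.54 log2, and 2 members fell without mock replicate 1 or with array weights. The calreticulin CRT1b, at -0.36 log2, and BZIP17, at -0.06 log2, were not called. The list's median was -0.06.

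**Figure D2:**
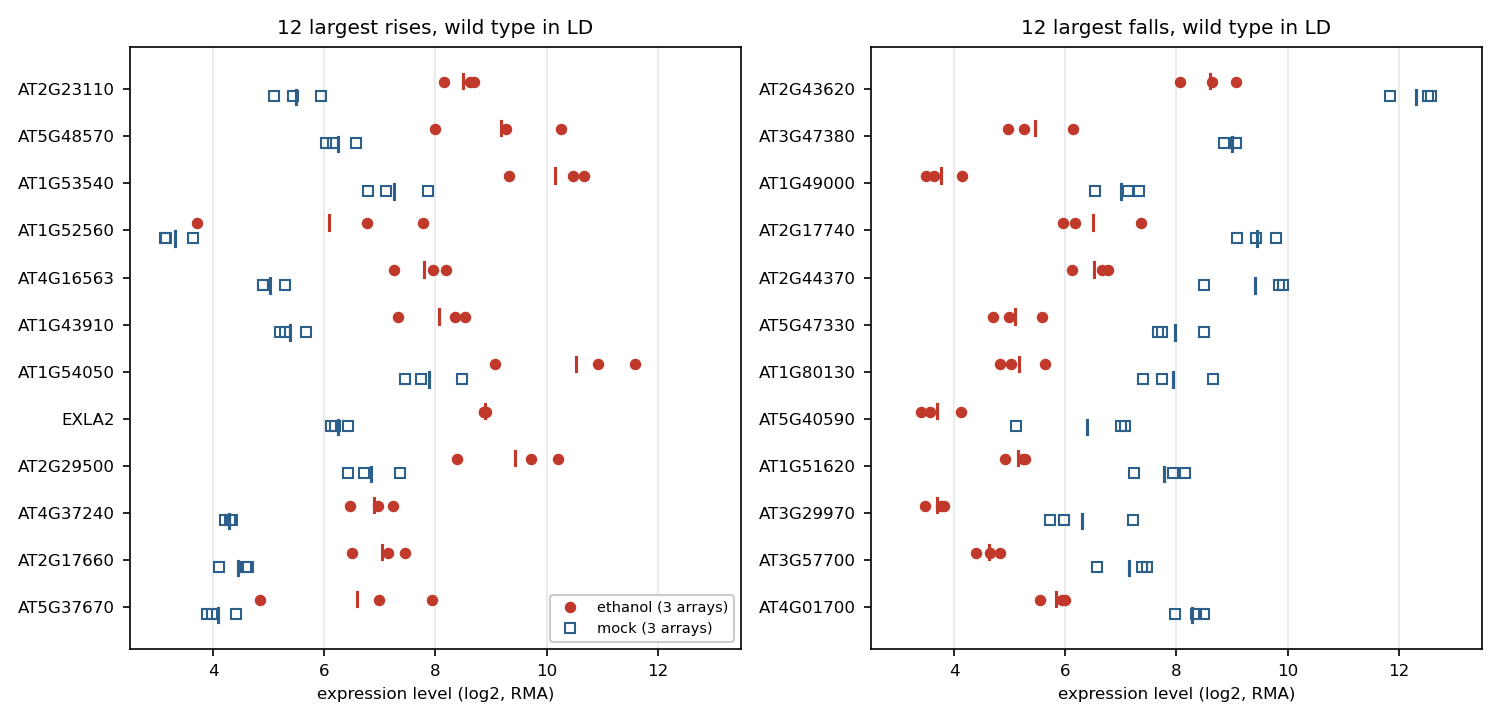
Expression level (log2, RMA) on the horizontal axis for the 12 genes with the largest rise and the 12 with the largest fall among called genes with 1 name, a higher group mean of at least 6 log2 and groups that do not overlap. Filled circles are ethanol arrays, open squares are mock arrays, and short lines are group means. Groups are several log2 units apart for most genes, while 1 ethanol array of AT1G52560 and of AT5G37670 lies close to the mock arrays.

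Genes known for induction under low oxygen rose in part. Of 25 measured members, 10 rose and none fell, against 11.2% and 14.9% among all probe sets, with a median of 0.43 log2, and 15 were not called. Without ethanol replicate 3, 1 member fell, and with only the compared groups fitted, 2 fell. Mock seedlings were submerged too, so the difference is that made by ethanol on top of submersion.

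AT3G23170 stood at 8.52, 8.21 and 7.61 log2 in the ethanol arrays and 6.27, 5.44 and 6.09 log2 in the mock arrays. AT3G10020 stood at 10.52, 11.23 and 11.59 log2 in the ethanol arrays and 9.39, 8.72 and 8.96 log2 in the mock arrays. The groups were apart for both genes, with differences of 2.18 ± 0.22 (SE) and 2.09 ± 0.21 log2 (limma adjusted p = 5.93e-07 and 4.97e-07). AT5G66985 rose by 2.06 ± 0.28 log2, CML38 by 1.74 ± 0.28 log2, AT2G36220 by 1.45 ± 0.15 log2 and AT4G24110 by 1.29 ± 0.24 log2. CML38 is a calmodulin-like protein that gathers in RNA granules under hypoxia. PDC2, a pyruvate decarboxylase at the entry to ethanol fermentation, stood at 8.58, 8.83 and 8.77 log2 in the ethanol arrays and 7.91, 7.75 and 7.75 log2 in the mock arrays, with no overlap (0.92 ± 0.15 (SE) log2, limma adjusted p = 8.71e-05).

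Other low-oxygen genes were not called. AT3G10040, known as HRA1, a trihelix factor that attenuates the hypoxia response, differed by -0.12 log2 at 4.6 log2 in ethanol arrays. The lowest differences, -1.11 log2 for AT5G10040 and -1.09 log2 for AT4G33560, were not called.

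Genes that loosen or remodel the cell wall formed the next group. Of 23 measured expansins and xyloglucan transferases, 8 rose (34.8%) and 2 fell (8.7%), with a median of 0.01 log2. Among all probe sets 11.2% rose and 14.9% fell. All measured alpha and beta expansins averaged under 6 log2 in both groups. All 3 measured members of the expansin-like A family rose. EXLA2 stood at 8.87, 8.87 and 8.92 log2 in the ethanol arrays and 6.18, 6.12 and 6.43 log2 in the mock arrays. EXLA1 stood at 11.29, 11.09 and 11.25 log2 in the ethanol arrays and 8.78, 8.69 and 8.80 log2 in the mock arrays. Both were tight within each group and wide apart between them, with differences of 2.64 ± 0.17 (SE) log2, 6.24-fold, and 2.45 ± 0.22 log2, 5.48-fold (limma adjusted p = 3.98e-09 and 1.31e-07). EXLA3 rose by 1.56 ± 0.20 log2, to 5.9 log2 in ethanol arrays.

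Xyloglucan endotransglucosylases cut and rejoin the hemicellulose that tethers cellulose. XTH33 stood at 8.33, 7.88 and 8.16 log2 in the ethanol arrays and 5.32, 6.81 and 6.18 log2 in the mock arrays. XTH16 stood at 8.11, 7.65 and 8.16 log2 in the ethanol arrays and 5.26, 6.70 and 6.30 log2 in the mock arrays. In both genes mock replicate 1 was lowest, the groups did not overlap, and the differences were 2.02 ± 0.30 (SE) and 1.89 ± 0.24 log2 (limma adjusted p = 4.14e-05 and 8.75e-06). XTH19, XTH18 and XTH20 rose by 1.55, 1.23 and 0.58 log2. XTH32 fell by 1.38 ± 0.32 log2. EXPA8 fell by 0.89 log2 and stood at 3.3 log2 in ethanol arrays, a level not shown to be above background. Without mock replicate 1, and with array weights, 4 members fell. Auxin drives wall loosening, and of 5 measured auxin-response genes, WES1, an enzyme that joins amino acids to auxin, rose by 0.70 ± 0.12 log2 and IAA29, an auxin repressor, fell by 0.65 log2 at under 4 log2 in both groups. Without mock replicate 3, 2 of these 5 rose.

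**Figure D3:**
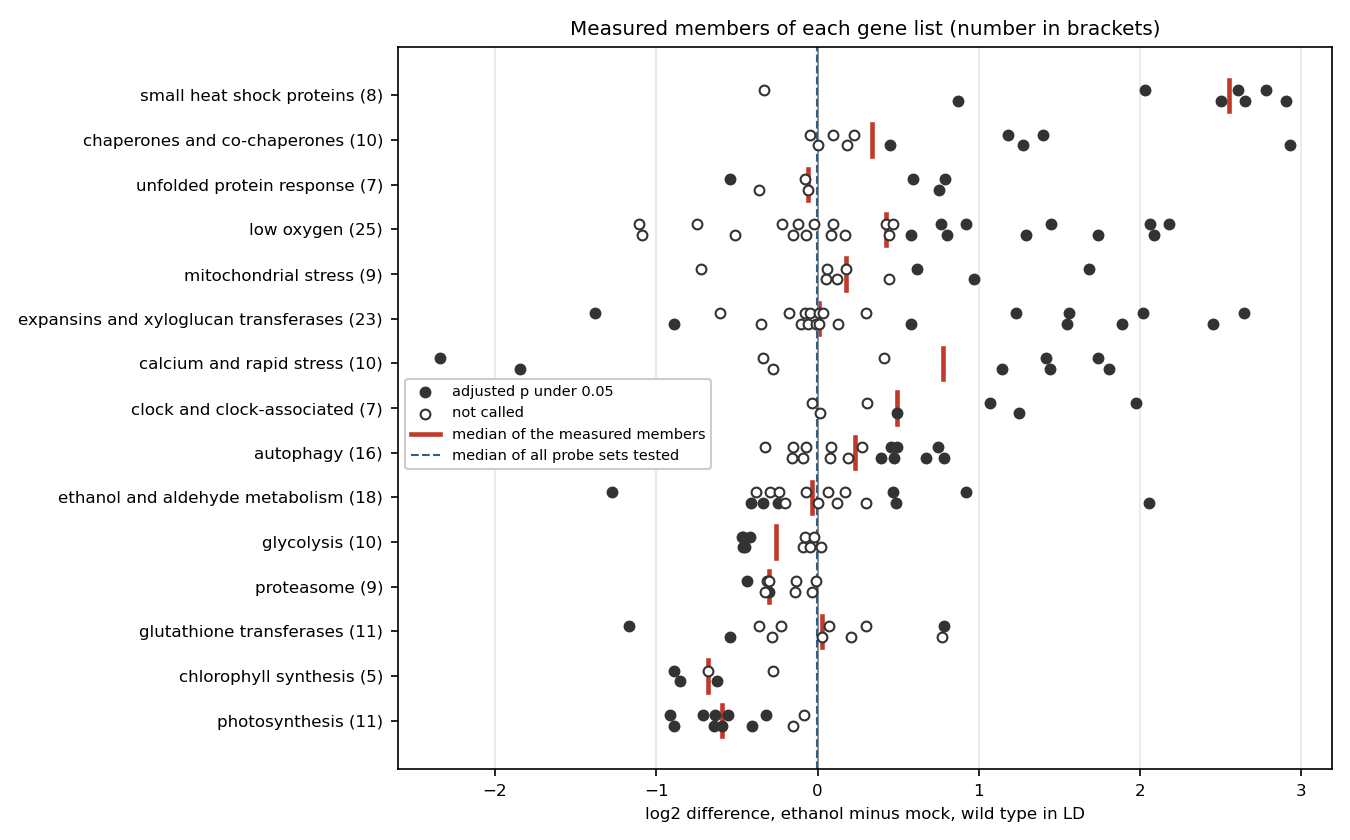
Log2 difference, ethanol minus mock, of every measured member of 15 gene lists in wild type in LD, with the number of measured members in brackets. Filled points passed an adjusted p of 0.05, open points did not, red bars are list medians, and the dashed line is the median of all 22746 probe sets, -0.002. The small heat shock proteins lie furthest right, with a median of 2.55, and the photosynthesis and chlorophyll synthesis genes lie left of 0.

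Calcium-binding proteins and fast stress regulators moved both ways. Of 10 measured members, 5 rose and 2 fell, with a median of 0.78 log2. The shares among all probe sets were 11.2% rising and 14.9% falling. The list's share of rises was above the former, and its share of falls was close to the latter. The calmodulin-like genes CML37, CML38 and CML23 rose by 1.81 ± 0.39 (SE), 1.74 ± 0.28 and 1.42 ± 0.24 log2. STZ, also called ZAT10, a zinc-finger repressor induced by cold, salt and light stress, rose by 1.14 ± 0.17 log2. WRKY53, a transcription factor of leaf senescence and defence, stood at 4.49, 4.28 and 3.98 log2 in the ethanol arrays and 7.14, 5.62 and 7.02 log2 in the mock arrays. Its groups did not overlap although mock replicate 2 was well under the other mock arrays (difference -2.34 ± 0.32 (SE) log2, limma adjusted p = 1.55e-05). AT2G41090 fell by 1.85 ± 0.28 log2.

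Among 14 named basic leucine zipper factors, a list composed after the values were seen, 4 rose (28.6%) and none fell. Among all probe sets 11.2% rose and 14.9% fell. bZIP44 stood at 9.73, 8.96 and 8.92 log2 in the ethanol arrays and 7.20, 7.003 and 7.27 log2 in the mock arrays. BZIP53 stood at 11.52, 11.54 and 11.43 log2 in the ethanol arrays and 9.95, 10.05 and 9.97 log2 in the mock arrays. These are related factors of low-energy and amino acid responses, and their differences were 2.04 ± 0.17 (SE) and 1.503 ± 0.09 log2 (limma adjusted p = 4.8e-08 and 1.69e-09), with no overlap. The other risers were BZIP60 and BZIP28, given above.

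Of 39 listed clock and clock-associated genes, only 7 had a named probe set, so most of the list was not covered. Of these 7, 4 rose (57.1%) and none fell, with a median of 0.50 log2. Among all probe sets 11.2% rose and 14.9% fell. GI (GIGANTEA, AT1G22770), a clock and flowering-time protein whose transcript normally peaks late in the day, stood at 7.42, 7.51 and 7.23 log2 in the ethanol arrays and 6.51, 5.76 and 6.68 log2 in the mock arrays. The groups were apart, and the difference was 1.07 ± 0.19 (SE) log2, 2.1-fold (limma adjusted p = 0.000293). Without mock replicate 2, the lowest mock array, it was 0.79 log2 and still called. COR27, a cold- and clock-regulated gene, rose by 1.25 ± 0.31 log2, AT4G33980 by 1.97 ± 0.18 log2 and AT5G52660 by 0.49 ± 0.15 log2. The AT5G52660 call was lost without mock replicate 3, without ethanol replicate 2 and with only the compared groups fitted, which left 3 risers in each case. TIC and XCT, regulators of clock period and phase, differed by -0.04 and 0.02 log2 and were not called.

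Of 18 measured genes of ethanol and aldehyde metabolism, 4 rose (22.2%) and 4 fell (22.2%), against 11.2% rising and 14.9% falling among all probe sets, with a median of -0.03 log2. ICL (AT3G21720), the isocitrate lyase of the glyoxylate cycle by which seedlings use acetate units, stood at 7.42, 8.05 and 7.27 log2 in the ethanol arrays and 5.57, 5.37 and 5.62 log2 in the mock arrays. Every ethanol array was above every mock array, and the difference was 2.06 ± 0.47 (SE) log2, 4.16-fold (limma adjusted p = 0.00224). ALDH2C4, a cytosolic aldehyde dehydrogenase, rose by 0.47 ± 0.10 log2, and the list member AT5G42250 by 0.49 ± 0.14 log2. ALDH3F1, another aldehyde dehydrogenase, stood at 6.29, 6.23 and 6.75 log2 in the ethanol arrays and 7.57, 7.76 and 7.76 log2 in the mock arrays, with no overlap (difference -1.28 ± 0.15 (SE) log2, limma adjusted p = 2.11e-06). ACS, the enzyme that charges acetate with coenzyme A, differed by -0.07 log2 and was not called. With each array centred on its median, 5 members rose and 1 fell. The falls numbered 2 when mock array 1, ethanol array 2 or ethanol array 3 was left out, and 2 with only the compared groups fitted.

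Glycolysis genes fell where they were called: 5 of 10 measured members fell and none rose, with a median of -0.26 log2. ENOC, an enolase, fell by 0.46 ± 0.11 (SE) log2 and AT5G42740 by 0.47 ± 0.09 log2, whereas the cytosolic dehydrogenase GAPC2 and the isomerase TPI, at -0.05 and -0.09 log2, were not called. With each array centred on its median 3 members fell, and fitting only the compared groups gave the same count of 3.

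Genes of mitochondrial stress and genes encoded in the mitochondrion mostly moved upward where they were called. Of 9 measured genes known for induction when mitochondria are impaired, 3 rose (33.3%) and none fell, with a median of 0.18 log2. Among all probe sets 11.2% rose and 14.9% fell. The count of rises was 2 without mock replicate 1 or 2. A fall of 1 member was called with array weights, the replicate block, the GAPDH covariate, dim probe sets filtered out or only the compared groups fitted. The same count of falls was found without ethanol replicate 1. AT2G21640 rose by 1.68 ± 0.28 (SE) log2, AT5G43450 by 0.97 ± 0.19 log2 and NDB2, an external NADH dehydrogenase that bypasses complex I, by 0.62 ± 0.19 log2. The NDB2 call was lost without mock replicate 1 or 2 or ethanol replicate 1. Among 16 mitochondrion-encoded probe sets named by the annotation, a list composed after the values were seen, 8 rose and none fell, with a median of 0.41 log2. The complex I subunit nad4L stood at 5.20, 6.10 and 5.95 log2 in the ethanol arrays and 4.92, 5.02 and 4.96 log2 in the mock arrays, and rose by 0.78 ± 0.17 log2. The cytochrome c assembly gene ccb452 rose by 0.61 ± 0.18 log2. The count of 8 mitochondrion-encoded rises fell to 4 when any of mock replicate 2, mock replicate 3 or ethanol replicate 3 was left out. It fell to 5 without mock replicate 1 and to 3 without ethanol replicate 2. It was 7 without ethanol replicate 1, and 4 with only the compared groups fitted.

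Autophagy, which recycles cytoplasm through the vacuole, was represented by 16 measured genes, of which 7 rose (43.8%) and none fell. Among all probe sets 11.2% rose and 14.9% fell. The list's median was 0.23 log2. ATG8 proteins are ubiquitin-like proteins that coat the forming autophagosome. ATG8H stood at 8.23, 8.17 and 7.84 log2 in the ethanol arrays and 7.49, 7.10 and 7.29 log2 in the mock arrays, and ATG8E, ATG8B, ATG8D and ATG8F rose with it, by 0.75, 0.67, 0.47 and 0.39 log2. The ATG8H difference was 0.79 ± 0.15 (SE) log2 (limma adjusted p = 0.000387). APG8A, ATG8C and ATG8G, at 0.28, 0.08 and -0.16 log2, were not called. The count of risers was 5 when mock array 3 or ethanol array 2 was left out, and 1 member fell when mock array 2 was left out.

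The proteasome, the target of the MG132 given to both groups, had 9 measured subunit genes, of which none rose and 2 fell. The falls were 22.2%, against 14.9% among all probe sets. AT1G45000 fell by 0.44 ± 0.11 (SE) log2 and RPN12a, a subunit of the regulatory particle, by 0.30 ± 0.11 log2. The list's median was -0.30, and the count of falls ranged over 1 to 4 across the alternatives, and was 1 when mock array 1, mock array 3 or ethanol array 3 was left out. Among 12 named ubiquitin-conjugating enzymes, a list composed after the values were seen, 5 rose (41.7%) and 1 fell (8.3%). Among all probe sets 11.2% rose and 14.9% fell. The risers included UBC19 by 0.45 ± 0.09 log2 and UBC30 by 0.47 ± 0.12 log2. Fitting only the compared groups left 1 riser, leaving out ethanol replicate 2 left 2, and leaving out mock replicate 2 left 3.

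The measured nuclear genes for photosynthesis mostly fell. Of 74 listed, 11 had a named probe set. Of these, 9 fell (81.8%) and none rose, against 14.9% falling among all probe sets, with a median of -0.59 log2. All 11 differences were below 0, the smallest being -0.09 log2 for LHCB4.1.

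ATPC1, the gamma subunit of the chloroplast ATP synthase, stood at 10.14, 10.33 and 10.65 log2 in the ethanol arrays and 11.17, 11.46 and 11.23 log2 in the mock arrays. SBPASE, an enzyme of carbon regeneration in the Calvin cycle, stood at 9.64, 9.72 and 10.003 log2 in the ethanol arrays and 10.32, 10.78 and 10.40 log2 in the mock arrays. PSBY, a small subunit of photosystem II, stood at 10.60, 10.70 and 10.90 log2 in the ethanol arrays and 11.15, 11.56 and 11.41 log2 in the mock arrays. For each of the 3 genes the groups were apart, ethanol replicate 3 was nearest to mock and mock replicate 2 was the highest array. Their differences were -0.91 ± 0.13 (SE), -0.71 ± 0.16 and -0.64 ± 0.16 log2 (limma adjusted p = 3.68e-05, 0.0022 and 0.00436). PSAN, a photosystem I subunit, fell by 0.64 log2, PSBW of photosystem II by 0.59 log2, the Calvin cycle kinase PRK by 0.55 log2, PSAE-1 by 0.41 log2 and RCA, the activase of Rubisco, by 0.32 log2. LHCB4.2, an antenna protein, fell by 0.89 ± 0.32 log2 although its groups overlapped.

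The count of photosynthesis falls was 5 without ethanol replicate 1, 5 without mock replicate 2, 6 without ethanol replicate 2 and 6 with each array centred on its median or with only the compared groups fitted. It was 9 with the GAPDH 3' minus 5' difference as a covariate, and the part of the actin and ubiquitin differences in it was not tested.

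Chlorophyll synthesis followed the same direction in the 5 of 17 listed genes that had a named probe set. Of these, 3 fell and none rose, against 14.9% falling and 11.2% rising among all probe sets, with a median of -0.68 log2. GSA1, which makes aminolevulinate, stood at 8.65, 8.42 and 8.38 log2 in the ethanol arrays and 9.31, 9.42 and 9.38 log2 in the mock arrays, with no overlap (difference -0.89 ± 0.09 (SE) log2, limma adjusted p = 7.29e-07). CHLI2, a subunit of magnesium chelatase, fell by 0.85 ± 0.16 log2 and HEMB1, aminolevulinate dehydratase, by 0.62 ± 0.12 log2. CHLM and PORB, later enzymes of the pathway, stood at -0.28 and -0.68 log2 and were not called. In a wider tetrapyrrole list composed after the values were seen, 5 of 12 fell (41.7%) and 1 rose (8.3%). Its share of falls was above the 14.9% among all probe sets, and its share of rises was below the 11.2% among them. The falls beyond the 3 above were HEME2, an enzyme of the shared part of the route, at -0.67 log2 and SIRB, the last enzyme of siroheme, at -0.58 log2. The riser was HEMA3, at 3.7 log2 in ethanol arrays, a call lost when mock array 2 or 3 or ethanol array 1 or 2 was left out and with only the compared groups fitted.

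Nuclear genes for chloroplast assembly and maintenance, also listed after the values were seen, gave 19 falls (54.3%) and no rise among 35. The list's median was -0.42 log2. PAM68, an assembly factor of photosystem II, stood at 4.999, 4.89 and 5.20 log2 in the ethanol arrays and 5.53, 6.22 and 5.79 log2 in the mock arrays, and fell by 0.81 ± 0.16 (SE) log2. CLPP4, a subunit of the plastid Clp protease, fell by 0.55 ± 0.11 log2 and LIL3:1, which stabilises enzymes of chlorophyll synthesis, by 0.83 ± 0.23 log2. The count of 19 became 11 without ethanol replicate 1, 11 without ethanol replicate 2, 10 without mock replicate 2 and 7 with only the compared groups fitted. With dim probe sets filtered out 11 fell. Of 69 named plastid-encoded probe sets, 5 fell (rbcL at -0.51 ± 0.14 log2 among them), none rose and 64 were not called. The share of falls, 7.2%, was below the 14.9% among all probe sets. The count of falls was 13 without ethanol replicate 3. It was 1 without ethanol replicate 1, without mock replicate 2, with centring or with only the compared groups fitted. Without ethanol replicate 2 it was 2, and with array weights or without mock replicate 1 it was 3.

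The falls included genes of defence and of metabolism. AT2G43620, a member of the salicylate and defence list, had the largest fall of all probe sets and stood at 9.07, 8.65 and 8.07 log2 in the ethanol arrays and 12.57, 11.85 and 12.53 log2 in the mock arrays. The difference was -3.72 ± 0.48 (SE) log2, mock over ethanol 13.2-fold (limma adjusted p = 8.31e-06). The other 3 measured members of that list, at -0.28 to -0.45 log2, were not called. AT3G47380 stood at 6.14, 5.25 and 4.96 log2 in the ethanol arrays and 9.07, 8.85 and 9.06 log2 in the mock arrays, a difference of -3.54 ± 0.29 log2 (limma adjusted p = 4.88e-08). AT1G49000, at 3.496, 4.14 and 3.63 log2 in the ethanol arrays and 7.33, 6.53 and 7.12 log2 in the mock arrays, fell by 3.24 ± 0.30 log2 to near background. The largest rise among genes with 1 name, a higher mean of at least 6 log2 and groups apart was that of AT2G23110. This gene stood at 8.16, 8.62 and 8.70 log2 in the ethanol arrays and 5.93, 5.43 and 5.10 log2 in the mock arrays. Its difference was 3.005 ± 0.42 log2 or 8.03-fold (limma adjusted p = 1.9e-05). Groups apart were a condition for the 12 largest rises and falls, so lack of overlap in them is no added support. All 12 of the largest falls are genes that the annotation gives only by locus, as are 11 of the 12 largest rises.

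Families of metabolic enzymes, gathered from the annotation's gene names after the values were seen, gave shares of calls near those of all probe sets (11.2% rising, 14.9% falling). Of 47 UDP-dependent glycosyltransferases (UGT), which attach sugars to small molecules, 4 rose (8.5%) and 9 fell (19.1%), with a median of 0.02 log2. UGT72E1, which glucosylates lignin precursors, stood at 5.11, 5.13 and 5.67 log2 in the ethanol arrays and 6.99, 7.43 and 6.91 log2 in the mock arrays, and fell by 1.80 ± 0.16 (SE) log2. UGT72B3 fell by 1.73 ± 0.15 log2, UGT71B1 by 1.103 ± 0.12 log2 and UGT87A2 by 1.04 ± 0.16 log2, while UGT73C1 and UGT76B1 rose by 1.12 ± 0.20 and 1.09 ± 0.26 log2. Of 23 cytochrome P450 genes, 1 rose and 4 fell, with CYP71B23 falling by 2.24 ± 0.28 log2. The riser, CYP71B30P, lost its call when mock array 1 or 2 or ethanol array 1 or 2 was left out, when arrays were weighted, and when the fit held the compared groups alone. The P450 falls numbered 2 when mock array 2 or ethanol array 1 was left out, and 1 when ethanol array 2 or all dim probe sets were. Glutathione transferases, enzymes that conjugate toxic compounds, were a planned list and were not gathered in that way. Of 11 measured, GSTU28 rose and GSTU20 and GSTU16 fell, and 8 were not called. Single arrays decided these glutathione transferase calls: no riser was left without mock replicate 2 or 3 or ethanol replicate 2 or 3, and no fall without mock replicate 2 or ethanol replicate 1.

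Other lists gave few calls, where 11.2% rose and 14.9% fell among all probe sets. Of 5 cold and abscisic acid genes, COR15A, a chloroplast protein of cold acclimation, fell by 1.52 ± 0.41 (SE) log2, and its call was lost without ethanol replicate 2, the lowest ethanol array, while COR47, LTI30, COR15B and LEA4-5, between -0.11 and 0.27 log2, were not called. Of 5 sulfate assimilation genes, AT1G04770 rose by 1.13 ± 0.20 log2 and the ATP sulfurylase APS3 by 0.63 ± 0.21 log2, with 1 riser left without mock replicate 1 or 3 or ethanol replicate 1 or 3. Of 4 antioxidant enzymes, the glutathione reductase GR1 fell by 0.28 log2, a call lost without mock replicate 3 or ethanol replicate 3. None was called among 6 measured genes of starch and sugar transport, 4 of flavonoid synthesis and 3 of leucine breakdown in dark and sugar starvation.

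The same ethanol treatment was set beside its effect in constant light. In LL, 1792 probe sets rose (7.88%) and 1799 fell (7.91%). Of the LD rises 36.3%, and of the LL rises 51.5%, were called as rises in both, 923 probe sets. For falls, the shared 960 were 28.3% of the LD falls and 53.4% of the LL falls. The 2 effects share no arrays, and across 22746 probe sets their log2 differences correlated at r = 0.594 (Pearson), a description only. The difference between the LD and the LL effect itself was called for 1348 probe sets (5.93%), 536 positive (2.36%) and 812 negative (3.57%). Single arrays moved that count: it was 282 positive and 461 negative without LL ethanol replicate 2, 314 and 466 without LD mock replicate 3, 328 and 474 without LL mock replicate 3, and 352 and 481 without LD ethanol replicate 2. With the GAPDH 3' minus 5' difference as a covariate it was 277 and 323.

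Of the 12 largest LD rises, 9 also rose in LL and 3 had a called difference. AT4G16563, at 7.26, 7.95 and 8.19 log2 in the LD ethanol arrays and 4.89, 5.29 and 4.90 log2 in the LD mock arrays, rose by 2.77 ± 0.27 (SE) log2 in LD and 0.95 ± 0.27 log2 in LL. Outside these 12, XTH33 rose by 2.02 log2 in LD and stood at -0.16 log2 in LL, where it was not called, and the difference of 2.18 ± 0.42 log2 passed (limma adjusted p = 0.00568). AT4G16680 and AT1G77640 also rose in LD, by 2.17 and 2.04 log2, and stood at 0.16 and 0.23 log2 in LL (differences 2.002 and 1.81, limma adjusted p = 0.00145 and 0.00242).

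Of 8 small heat shock protein genes, 3 rose in LL, with a median of 0.64 log2 there, and 1 difference was called, against 5.93% of all probe sets, that of AT5G37670 (2.50 ± 0.42 log2 in LD and 0.25 ± 0.42 log2 in LL, limma adjusted p of the difference 0.03). That call was lost in 10 of the alternatives, with adjusted p between 0.0509 and 0.141. Among the 25 low-oxygen genes, 7 differences were called, all positive, among them AT3G10020 at 1.37 ± 0.29 log2 and AT4G39675, which rose by 0.80 log2 in LD and stood at -0.49 log2 in LL. For GI the effects were 1.07 log2 in LD and 0.94 log2 in LL, a difference of 0.13 ± 0.27 log2 that was not called.

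Of the 12 largest falls, 9 also fell in LL and 5 differences were called. AT3G28220, just outside these 12, stood at 5.91, 5.91 and 6.55 log2 in the LD ethanol arrays and 8.08, 9.16 and 8.0 log2 in the LD mock arrays. It fell by 2.29 ± 0.31 (SE) log2 in LD and stood at 0.10 log2 in LL, and the difference of -2.40 ± 0.44 log2 passed (limma adjusted p = 0.00467). AT3G51450 and AT3G29970 fell by 2.21 and 2.62 log2 in LD and stood at -0.25 and -0.56 log2 in LL, with differences of -1.96 and -2.06. The call for AT3G51450 was lost under 4 alternatives. GSTU25, a glutathione transferase, was not called in LD, at -0.29 ± 0.38 log2, and rose by 2.52 ± 0.38 log2 in LL (limma adjusted p of the difference 0.00564).

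**Figure D4:**
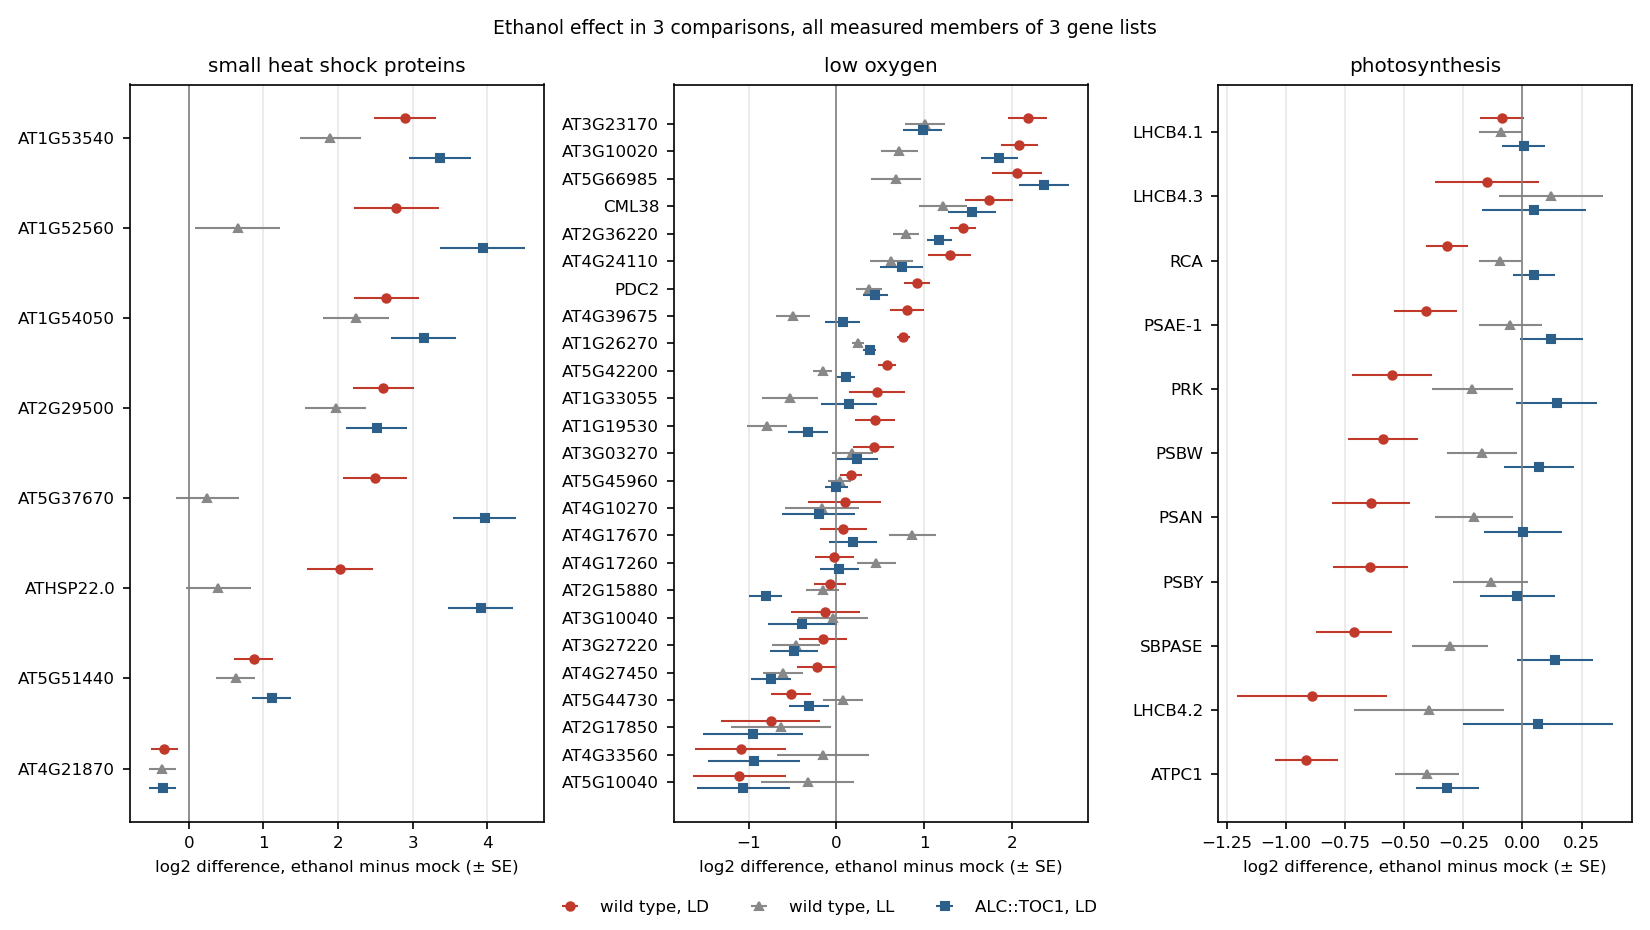
Log2 difference, ethanol minus mock, with its standard error for every measured small heat shock protein gene (8), low-oxygen gene (25) and photosynthesis gene (11), in wild type in LD (red circles), wild type in LL (grey triangles) and ALC::TOC1 in LD (blue squares). The photosynthesis differences of ALC::TOC1 lie around 0 apart from ATPC1, with a median of 0.05, against -0.59 in wild type in LD.

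In ALC::TOC1 in LD, 1891 probe sets rose (8.31%) and 2364 fell (10.4%). Of the wild-type rises 50.1%, and of the ALC::TOC1 rises 67.4%, were called as rises in both, 1274 probe sets, and for falls the shared 1563 were 46.1% and 66.1%. The differences between the genotypes' effects were called for 94 probe sets (0.413%), 17 positive (0.0747%) and 77 negative (0.339%). Single arrays moved this count too. It was 108 positive and 266 negative without wild-type ethanol replicate 3, 127 and 210 without ALC::TOC1 ethanol replicate 3, 4 and 45 without ALC::TOC1 ethanol replicate 1, 8 and 51 without ALC::TOC1 ethanol replicate 2, 9 and 49 without ALC::TOC1 mock replicate 2, and 10 and 50 without wild-type mock replicate 3.

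All 12 of the largest wild-type rises also rose in ALC::TOC1, and none of these 12 had a called difference. The small heat shock protein genes rose in 7 of 8 cases in ALC::TOC1, with a median of 3.25 log2. The list gave no called difference between genotypes, and neither did low-oxygen genes, of which 8 rose and 2 fell in ALC::TOC1. Of the 12 largest wild-type falls, 10 also fell in ALC::TOC1, 1 of them, AT3G29970, with a called difference (-1.701 ± 0.34 log2, limma adjusted p = 0.0242). The others were AT5G40590, whose difference was not called, and AT1G80130. AT1G80130 stood at 5.02, 4.82 and 5.63 log2 in the wild-type ethanol arrays and 7.40, 8.66 and 7.75 log2 in the wild-type mock arrays. It fell by 2.78 ± 0.27 (SE) log2 in wild type and stood at -0.09 ± 0.27 log2 in ALC::TOC1 (difference -2.69 ± 0.39 log2, limma adjusted p = 0.000963).

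The photosynthesis genes gave 9 falls in wild type and none in ALC::TOC1, where the median was 0.05 log2, but none of the 11 differences between genotypes was called, so a difference is not shown. SBPASE stood at -0.71 ± 0.16 (SE) log2 in wild type and 0.14 ± 0.16 log2 in ALC::TOC1, a difference of -0.85 ± 0.23 log2 (limma adjusted p = 0.109). GI stood at 1.07 log2 in wild type and 0.17 log2 in ALC::TOC1, and that difference was not called either (limma adjusted p = 0.163).

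Ethanol raised 3 named genes more in wild type than in ALC::TOC1 by the test of the difference: AT1G72900, AT1G23460 and AT5G14730, with wild-type rises of 1.05, 1.27 and 1.32 log2 and ALC::TOC1 values of -0.48, -0.09 and 0.27 log2. Mock levels of these 3 genes were 6.79, 5.86 and 7.25 log2 in wild type, against 7.79, 7.06 and 8.72 log2 in ALC::TOC1. The call of the difference for AT1G72900 was lost under 8 alternatives, and those for AT1G23460 and AT5G14730 with only the compared groups fitted (limma adjusted p = 0.0776 and 0.0732). Among the most negative differences, AT5G55800 stood at 0.31 ± 0.17 (SE) log2 in wild type, not called, and rose by 4.77 ± 0.17 log2 in ALC::TOC1, and SBTI1.1, a subtilisin-like protease, stood at -0.09 ± 0.18 log2 in wild type, not called, and rose by 3.63 ± 0.18 log2 in ALC::TOC1.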

How the data were processed

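The deposited values were log2 expression levels per probe set on the ATH1 array, made by the authors with RMA from the package affy, per the submitters' processing notes, with no version given. RMA corrects background, equalises the distribution of arrays and summarises probes. All 24 columns were used as deposited. The 64 control probe sets among 22810 were dropped, and the other 22746 were tested whatever their brightness. A single gene name from the platform annotation stood beside 13513 probe sets, more than 1 beside 503 and no name beside 8730, and only the first kind could be named or enter a list. Of them 13436 matched RefSeq (TAIR10.1) by gene ID, which gave the symbols, and 147 genes had several probe sets, represented by the brightest.

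All 24 arrays were fitted with limma 3.58.1 in R 4.3.3 (lmFit, eBayes, 8 group means, 16 residual degrees of freedom). Calls are two-sided at a Benjamini-Hochberg adjusted p under 0.05 over all 22746. Errors are standard errors of that fit, for 3 arrays a group, whose number is what limits precision. Tests were the ethanol effect in wild type in LD, its difference from LL and its difference from ALC::TOC1, with the 3' minus 5' values by exact permutation. The fit was tested on simulated data, where it recovered 98 of 105 probe sets changed by 1 log2 unit.

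Genes named (164 by the rule) are the 12 largest rises and falls (higher mean at least 6 log2, groups apart), up to 4 per direction of each list with at least 3 calls, GI, and the 5 largest differences each way between effects. A few further list members are given where their list is described. The members and lists were chosen with earlier results of these data known, and 20 lists were added after the values were seen, of which 1 is not reported here. Of 898 list entries, 222 had a named probe set, and heat shock factors, jasmonate and aquaporin genes, with none, were not analysed here. A group mean under 4 log2 was not taken as above background. Promoter sequences were not used here. The alternatives were median centring, a second quantile normalisation, leaving out dim probe sets, eBayes with trend and robust settings, only the compared groups, array weights, a replicate block, a 2-fold minimum, the GAPDH difference as covariate and each array left out.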

Additional observations from a re-analysis of the deposited data

Results flagged for a closer look

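Groups of 3 arrays are too small for a test of single far-off arrays, so the results here are genes whose ethanol effect differed between conditions by the limma test of the difference itself.

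In wild type, 10 named genes differed between LD and LL. The effect was more positive in LD for AT5G37670 by 2.25 log2, XTH33 by 2.18, AT4G16680 by 2.0, AT4G16563 by 1.82 and AT1G77640 by 1.81. It was more negative in LD for GSTU25 at -2.8 log2, AT3G28220 at -2.4, AT3G29970 at -2.06, AT3G51450 at -1.96 and AT1G52070 at -1.94. AT1G52070 averaged 3.89 log2 in LD ethanol arrays and 4.09 log2 in LD mock arrays, against 8.67 log2 in LL ethanol arrays and 6.93 log2 in LL mock arrays. Its call was lost under 10 alternatives. GSTU25 averaged 5.51 log2 in LD ethanol arrays and 5.79 log2 in LD mock arrays, against 10.3 log2 in LL ethanol arrays and 7.82 log2 in LL mock arrays.

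In LD, 8 named genes differed between wild type and ALC::TOC1. The effect was more positive in wild type for AT1G72900 by 1.53 log2, AT1G23460 by 1.36 and AT5G14730 by 1.05. It was more negative in wild type for AT5G55800 at -4.46 log2, AT4G25780 at -4.04, SBTI1.1 at -3.71, AT1G80130 at -2.69 and AT1G45160 at -2.09. AT4G25780 averaged 4.55 log2 in wild-type ethanol arrays and 5.26 log2 in wild-type mock arrays, against 7.65 log2 in ALC::TOC1 ethanol arrays and 4.32 log2 in ALC::TOC1 mock arrays. AT1G45160 averaged 6.06 log2 in wild-type ethanol arrays and 6.43 log2 in wild-type mock arrays, against 8.1 log2 in ALC::TOC1 ethanol arrays and 6.37 log2 in ALC::TOC1 mock arrays. AT5G55800 and SBTI1.1 averaged under 4 log2 in both wild-type groups.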

How the results depend on the processing

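The wild-type LD count of 2541 rises and 3391 falls became 3870 and 2199 with each array centred on its median, 1826 and 2233 with only the compared groups fitted, and 524 and 396 (920 in all) with a 2-fold minimum. Leaving out each array gave 2052 to 2561 rises and 2501 to 3369 falls, 4616 to 5930 in all. The LD minus LL count of 536 positive and 812 negative became 849 positive with array weights, 277 and 323 (600 in all) with the GAPDH covariate, 213 and 399 (612 in all) with only the compared groups and 141 and 207 (348 in all) with a 2-fold minimum. Leaving out each array gave 282 to 703 positive and 461 to 1030 negative, 743 to 1668 in all. The wild type minus ALC::TOC1 count of 17 positive and 77 negative became 207 and 335 (542 in all) with array weights, 8 and 36 (44 in all) with the filter on dim probe sets, 7 and 38 (45 in all) with only the compared groups and 11 and 50 (61 in all) with a 2-fold minimum. Leaving out each array gave 4 to 127 positive and 45 to 266 negative, 49 to 374 in all. The cause of these changes was not tested, apart from the 2-fold minimum, which by its construction drops smaller changes.

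Of 160 genes named by the rules and called in wild type in LD, 110 kept direction and call under each of 14 alternatives in which they were tested, 50 lost the call under at least 1, and none changed sign. Fitting only the compared groups, with fewer arrays to estimate the spread, lost 39 of them, centring 17 and leaving out each array 13 to 29. Of the 24 largest changes, AT1G52560 alone lost its call, at an adjusted p of 0.0647 with only the compared groups. Of 18 named differences between effects, 11 kept their call throughout. With the replicate number as a block the calls were 2490 rises and 3321 falls. The numbers did not pair the arrays: deviations of same-numbered ethanol and mock arrays correlated at 0.0318, -0.399 and -0.232, and no ethanol array correlated best with the mock array of its own number. Signal near background limits sizes for genes under 4 log2 in either group.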

Other observations

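Transport genes, in lists composed from the annotation's names after the values were seen, rose where they were called, with 1 exception. Of 10 measured sugar and nitrogen carriers 6 rose and none fell in wild type in LD, with a median of 0.52 log2, against 11.2% rising and 14.9% falling among all probe sets. TMT1, a carrier that loads sugars into the vacuole, stood at 8.73, 9.15 and 8.88 log2 in the ethanol arrays and 7.87, 7.94 and 7.99 log2 in the mock arrays. GTR1, a glucosinolate transporter, stood at 9.0, 8.87 and 9.56 log2 in the ethanol arrays and 8.01, 8.34 and 7.80 log2 in the mock arrays. Neither gene's groups overlapped, and the differences were 0.99 ± 0.14 (SE) and 1.097 ± 0.24 log2 (limma adjusted p = 3.76e-05 and 0.00154). SFP1 rose by 0.97 ± 0.16 log2. Of 14 SWEET genes, which encode sugar transporters, SWEET16 rose by 0.96 ± 0.17 log2, SWEET2 by 0.49 and SWEET10 by 0.68, while SWEET4 fell by 0.60 log2. The SWEET10 call was lost without mock replicate 1 or 2 or ethanol replicate 1 or 2, and no fall was left without any of the mock replicates or without ethanol replicate 1 or 2.

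RALF-like genes encode secreted signalling peptides, and of 10 measured 2 rose (20.0%) and 3 fell (30.0%). Among all probe sets 11.2% rose and 14.9% fell. RALFL33 stood at 11.50, 11.53 and 11.45 log2 in the ethanol arrays and 10.92, 10.67 and 10.77 log2 in the mock arrays, with no overlap (0.71 ± 0.09 (SE) log2, limma adjusted p = 8.91e-06). RALFL34 stood at 6.78, 6.62 and 7.24 log2 in the ethanol arrays and 7.62, 8.10 and 8.15 log2 in the mock arrays, again with no overlap (-1.08 ± 0.17 (SE) log2, limma adjusted p = 8.15e-05). RALFL31 fell by 0.84 log2. Of 15 tetraspanins, membrane proteins with a conserved fold, TET9 rose by 1.302 ± 0.18 log2 and TET8 by 0.95 ± 0.18 log2. The other 13 were not called, and the share of rises, 13.3%, was near the 11.2% among all probe sets. The remaining families gave few calls, and the 3 largest of them had shares not far from the 11.2% rising and 14.9% falling among all probe sets. Of 22 TBL genes 1 rose and 4 fell, of 29 SCPL peptidases 2 rose and 5 fell, and of 20 BGLU glucosidases 3 rose and 2 fell. Of 15 IQD proteins 1 rose and 3 fell, of 15 GH9 glucanases 1 fell, of 6 WRKY factors 2 fell and of 9 PUB ligases 1 rose. Single arrays moved several of these counts. SCPL falls numbered 1 when ethanol array 2 was left out and 2 when mock array 2 was, and SCPL rises numbered 4 in that last case. BGLU rises numbered 1 when mock array 3 or ethanol array 2 was left out, and IQD falls 1 when mock array 3 was. No TBL riser was left when mock array 1 or 3 or ethanol array 1 or 2 was left out, and 2 were when mock array 2 was. PUB rises numbered 2 when mock array 2 or ethanol array 2 was left out, PUB falls 1 when mock array 2 or ethanol array 1 was, and GH9 rises 1 when ethanol array 3 was.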
